A study of Mus musculus with 6 samples.

Results

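The genes described here are 9 that set how much calcium a muscle fibre pumps, holds and buffers: the pump genes Atp2a1 and Atp2a2, the pump inhibitor genes Pln and Sln, the cytosolic buffer gene Pvalb, and Casq1, Casq2, Hrc and Srl, which encode proteins of the calcium store. They are 9 of 37477 Ensembl genes in the table, and all 9 were among the 13848 abundant enough to be tested. The set was chosen on values of the same comparison, because Pvalb was higher and Pln lower in knockout muscle, so their differences, intervals and calls describe the values that chose the set and are no independent test. RNA was measured in 3 KO libraries, from MERKO mice in which estrogen receptor alpha had been knocked out in muscle only (both copies of the gene, by the label), and in 3 libraries of wild-type (WT) mice. All were C57BL/6 mice aged 20 weeks, and the tissue was labelled quadriceps, the large muscle of the front of the thigh. The sources used here do not give the promoter that drove the deletion, whether WT mice carried floxed alleles, or whether each library came from 1 animal. Errors and p-values therefore measure the spread between libraries, which may be technical.

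A muscle fibre contracts when calcium leaves its internal store, the sarcoplasmic reticulum, and relaxes when calcium pumps of the SERCA family return it there. Fast fibres use the SERCA1 pump from Atp2a1, slow fibres and heart the SERCA2 pump from Atp2a2. Phospholamban, from Pln, and sarcolipin, from Sln, are very small membrane proteins that bind the pumps and slow them. Parvalbumin, from Pvalb, is a soluble calcium buffer that speeds relaxation of fast fibres in rodents, while the calsequestrins and other acidic proteins hold calcium inside the store.

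Total counts lay between 7809612 and 8560244 in KO libraries and between 7388365 and 7733401 in WT libraries. Esr1, the targeted gene, had 22, 16 and 16 counts in KO libraries, against 50, 41 and 44 in WT libraries, a log2 difference of -1.45 ± 0.23 (SE) with an adjusted p of 0.145 in edgeR's quasi-likelihood test with Benjamini-Hochberg adjustment. Which exons were deleted is not stated. The skeletal muscle genes Ckm, Acta1, Des, Ttn, Neb and Mb were all present. Quadriceps of mice is known as a mainly fast muscle, and the myosin profile of all 6 libraries went against that. Myh7, of slow fibres, took 59.0% to 61.0% of counts of Myh7, Myh2, Myh1 and Myh4 combined in KO libraries and 57.9% to 62.5% in WT libraries, while Myh4, of the fastest fibres, took 1.20% to 1.60% in KO and 0.525% to 1.15% in WT. In bulk tissue, fewer fibres of a type and less RNA per fibre cannot be told apart.

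The start regions of Pvalb and Pln are shown because these are the genes of the set whose KO and WT values did not overlap, and because the deleted protein binds DNA. RefSeq (GRCm38.p6) gives a sequence of 250 bases before to 50 after the start for 6 of the 9 genes. It holds more than 1 start for Pvalb, on the minus strand of chromosome 15, and 1 start for Pln, on the plus strand of chromosome 10. Capitals mark the 5-base core of the estrogen response element (GGTCA, or TGACC on the other strand) and the E-box CANNTG, a site of myogenic factors.

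Pvalb outer start, chr15:78206351-78206650, minus strand: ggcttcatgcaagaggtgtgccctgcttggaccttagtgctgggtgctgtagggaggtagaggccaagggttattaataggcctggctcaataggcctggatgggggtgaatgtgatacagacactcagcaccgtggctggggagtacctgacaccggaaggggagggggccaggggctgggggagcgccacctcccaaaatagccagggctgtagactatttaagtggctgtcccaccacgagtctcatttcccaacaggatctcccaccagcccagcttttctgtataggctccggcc
Pvalb inner start, chr15:78204188-78204487, minus strand: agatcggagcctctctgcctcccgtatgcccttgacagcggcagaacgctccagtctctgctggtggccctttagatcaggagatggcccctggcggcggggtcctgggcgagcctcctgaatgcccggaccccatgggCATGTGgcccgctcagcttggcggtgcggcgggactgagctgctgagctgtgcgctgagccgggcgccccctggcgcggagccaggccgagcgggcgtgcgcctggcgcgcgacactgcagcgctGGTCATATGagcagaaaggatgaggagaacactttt
Pln start, chr10:53337436-53337735, plus strand: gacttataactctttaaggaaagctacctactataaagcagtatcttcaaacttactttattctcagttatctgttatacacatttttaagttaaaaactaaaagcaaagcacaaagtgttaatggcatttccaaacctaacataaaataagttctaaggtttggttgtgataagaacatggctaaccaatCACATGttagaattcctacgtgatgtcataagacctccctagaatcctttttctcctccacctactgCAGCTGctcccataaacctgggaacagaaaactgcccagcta

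The outer Pvalb sequence held neither motif. The inner one held 1 core element, from base 15 after the start, and 2 E-boxes, from 111 bases before the start and from base 18, the second of which overlaps the core element. The Pln sequence held 2 E-boxes, beginning 59 bases before and 9 bases after the start, and no core element. The full palindrome, GGTCA and TGACC with 3 bases between, was in none of the 7 sequences of the set and in 0.0700% of all 32851 promoters of the table; it contains the core element, which was in 40.5% of all promoters and in 4 of the 7. An E-box was in 72.3% of all promoters and in 6 of the 7. These are matches of letters within short windows, and no binding was measured.

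The pumps came first in abundance and differed little between genotypes. Atp2a2 (chromosome 5, from 122453513 to 122502225, minus strand) was at 6021, 6100 and 6450 CPM (counts brought to a common library size, with TMM scaling) in KO libraries, against 6650, 6633 and 5766 CPM in WT libraries. The groups overlapped, WT replicate 3 being the lowest library of all. KO minus WT was -0.04 ± 0.08 (SE) as a fitted log2 difference, and its 95% interval ran from -0.21 to 0.14. Atp2a1 (chromosome 7, from 126445858 to 126463108, minus strand) was at 2283, 2560 and 2350 CPM in KO libraries and at 2201, 2451 and 2099 CPM in WT libraries. These ranges overlapped as well, with a log2 difference of 0.09 ± 0.08 (SE) and an interval from -0.08 to 0.26. Exons of Rabep2 on the opposite strand cover 21.9% of the exonic bases of Atp2a1, and no source used here says that strand was kept. Rabep2 was at 489, 548 and 516 CPM in KO libraries and at 473, 501 and 471 CPM in WT libraries, and its part in the Atp2a1 counts was not tested.

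Of the inhibitors, Pln was lower in every KO library than in any WT library, while the groups overlapped for Sln. Pln (chromosome 10, from 53337667 to 53345987, plus strand) had 306, 361 and 275 counts in KO libraries, against 407, 394 and 357 in WT libraries. Scaled, these were 36.2, 43.6 and 34.0 CPM in KO and 54.5, 53.9 and 45.3 CPM in WT, so that the highest KO library lay just under the lowest WT library. The mean was 38.0 ± 5.02 CPM in KO and 51.2 ± 5.17 CPM in WT (SD, n = 3 each). The ratio of KO to WT means was 0.741, and the log2 difference was -0.43 ± 0.11 (SE).

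An overlapping gene qualifies the Pln value. Exons of Cep85l, on the opposite strand and listed in the table under the symbol Gm9766, cover 141 exonic bases of Pln, or 5.11%. Cep85l was at 27.3, 44.5 and 28.4 CPM in KO libraries and at 55.5, 43.8 and 33.5 CPM in WT libraries, a log2 difference of -0.40 ± 0.28 (SE), close in size to that of Pln but with overlapping groups. With Gm47644, a predicted antisense gene with no row in the table that is not analysed here, the covered part of Pln grows to 64.7%. Whether reads of either gene were counted as Pln was not tested.

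Sln (chromosome 9, from 53850164 to 53854560, plus strand) varied more among WT libraries than any other gene of the set. Its counts were 408, 434 and 458 in KO libraries, against 247, 393 and 198 in WT libraries. In CPM these were 48.3, 52.4 and 56.7 in KO and 33.1, 53.7 and 25.1 in WT. The KO libraries lay close together, while WT replicate 2 stood within the KO range and the other WT libraries well under it. The coefficient of variation was 8.03% in KO and 39.6% in WT, the log2 difference 0.50 ± 0.30 (SE), and the interval ran from -0.28 to 1.27. WT replicate 2 set much of that value: without it the difference was 0.85, and without WT replicate 3 it was 0.27.

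Pvalb, the cytosolic buffer (chromosome 15, from 78191114 to 78206400, minus strand), had the largest difference of the set. It had 732, 841 and 835 counts in KO libraries, against 494, 385 and 319 in WT libraries. In CPM these were 86.6, 102 and 103 in KO and 66.2, 52.6 and 40.4 in WT. Every KO library lay above every WT library, and the KO values were the more even, with a coefficient of variation of 9.47% in KO and 24.2% in WT. The ratio of KO to WT means was 1.83, with a log2 difference of 0.87 ± 0.17 (SE) and an interval from 0.48 to 1.27. In the authors' deposited table the log2 fold changes were 0.89 for Pvalb, 0.52 for Sln and -0.41 for Pln.

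Genes of fast fibres are set beside Pvalb here. Actn3, the alpha-actinin of fast fibres, was at 126, 129 and 144 CPM in KO libraries and at 69.4, 36.5 and 47.5 CPM in WT libraries. Myh1 was at 4038, 4235 and 4713 CPM in KO and at 3917, 3349 and 2823 CPM in WT, so that KO libraries lay higher for both genes. Myh2, also of fast fibres, went the other way, with 9694, 9360 and 9037 CPM in KO, each below the 10352, 10296 and 10493 CPM in WT. Myl1 and Tnnt3, of the fast contractile apparatus, had log2 differences of -0.00. For Mylpf and Tnni2, of the same apparatus, they were 0.13 and 0.07, with overlapping groups. Tnnc2, also of that apparatus, was at 1621, 1737 and 1765 CPM in KO, each above the 1566, 1565 and 1600 CPM in WT. Myh4 was at 474, 411 and 587 CPM in KO and at 441, 194 and 276 CPM in WT, and so overlapped. Mybpc2, the fast myosin-binding protein C, stood at 80.1, 102 and 117 CPM in KO and at 84.0, 44.6 and 57.8 CPM in WT. In WT, replicate 1 was the highest library for Actn3, Myh1, Myh4, Mybpc2 and Pvalb, but not for Myh2. It was also the highest for Myh7, of slow fibres, and for Pln and Atp2a2. Myh7 was at 21018 ± 1186 CPM in KO and 21746 ± 2635 CPM in WT (SD, n = 3 each). Tnni1, also of slow fibres, was at 1472 ± 76.4 CPM in KO and 1309 ± 104 CPM in WT (SD, n = 3 each), with overlapping groups. Of the 9 slow genes tested, 3 lay higher in KO and 6 lower. How far fibre composition sets the Pvalb value was not tested.

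**Figure D1:**
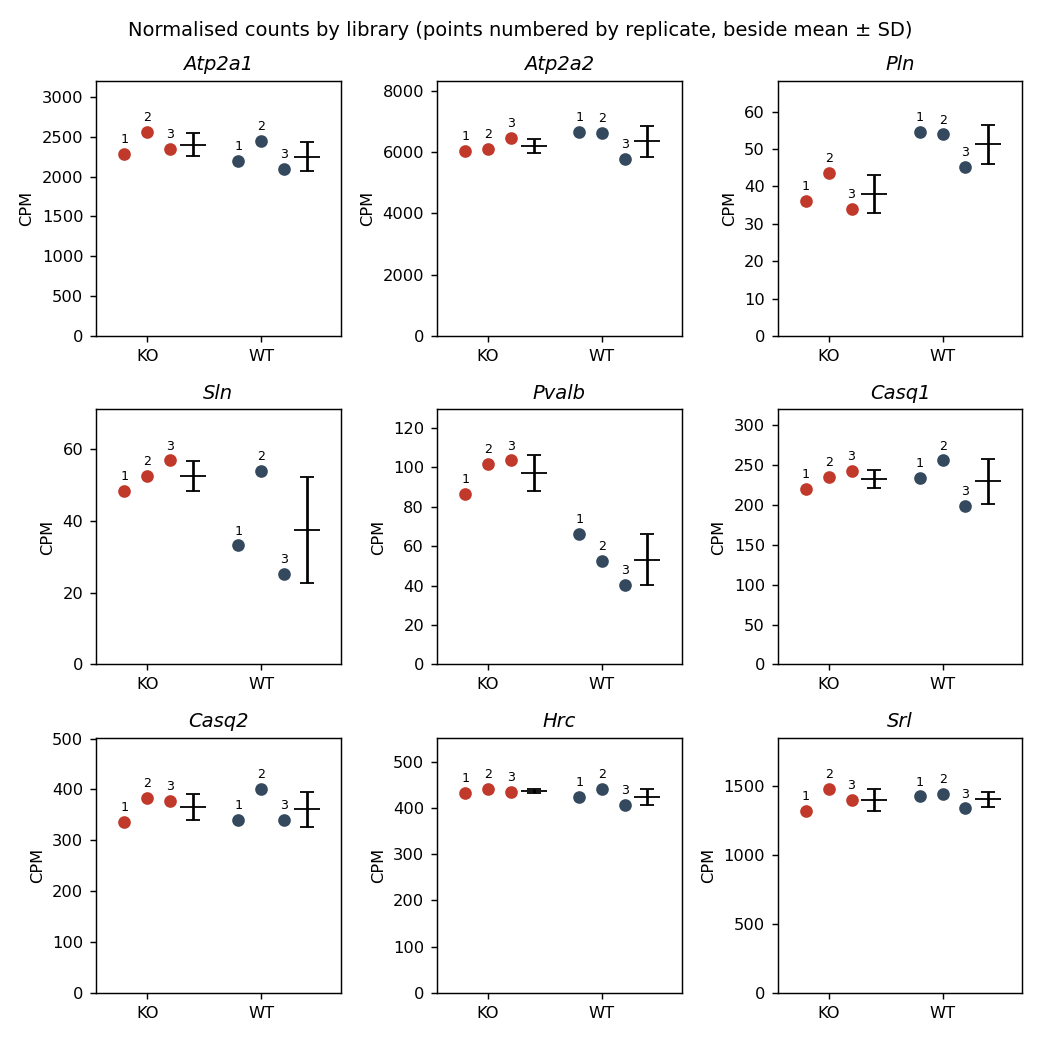
Normalised counts (CPM) of the 9 genes, with 1 point per library numbered by replicate, beside the mean and SD of each genotype (n = 3). KO points lie above all WT points for Pvalb and below all WT points for Pln, whereas for Sln WT replicate 2 (53.7 CPM) lies within the KO range.

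For each of the proteins that bind calcium inside the store, the KO and WT libraries overlapped. Casq1, the calsequestrin of fast fibres (chromosome 1, from 172209894 to 172219868, minus strand), was at 220, 235 and 243 CPM in KO libraries and at 234, 256 and 199 CPM in WT libraries. Casq2, the calsequestrin of heart and slow fibres (chromosome 3, from 102086415 to 102146514, plus strand), was at 335, 383 and 378 CPM in KO and at 341, 401 and 340 CPM in WT. Both overlapped between genotypes, with log2 differences of 0.02 ± 0.09 and 0.02 ± 0.08 (SE). Exons of the predicted gene Gm17224 cover 156 of the 1951 exonic bases of Casq1, and it was at 36.7 ± 6.54 CPM in KO and 33.3 ± 5.13 CPM in WT (SD, n = 3 each).

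Hrc, the histidine-rich calcium-binding protein (chromosome 7, from 45335290 to 45338974, plus strand), had the smallest spread of the set among KO libraries. It was at 433, 441 and 435 CPM in KO libraries and at 423, 441 and 406 CPM in WT libraries, a coefficient of variation of 0.961% in KO and 4.16% in WT. Srl, which encodes sarcalumenin, a glycoprotein of the store that binds calcium near the pumps (chromosome 16, from 4480216 to 4541816, minus strand), was at 1321, 1481 and 1399 CPM in KO and at 1427, 1447 and 1339 CPM in WT. Its log2 difference was -0.00 ± 0.08 (SE), and that of Hrc 0.04 ± 0.07 (SE). For the pumps and the 4 store proteins together, these 6 log2 differences ran from -0.04 to 0.09, and every 95% interval lay between -0.21 and 0.26.

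**Figure D2:**
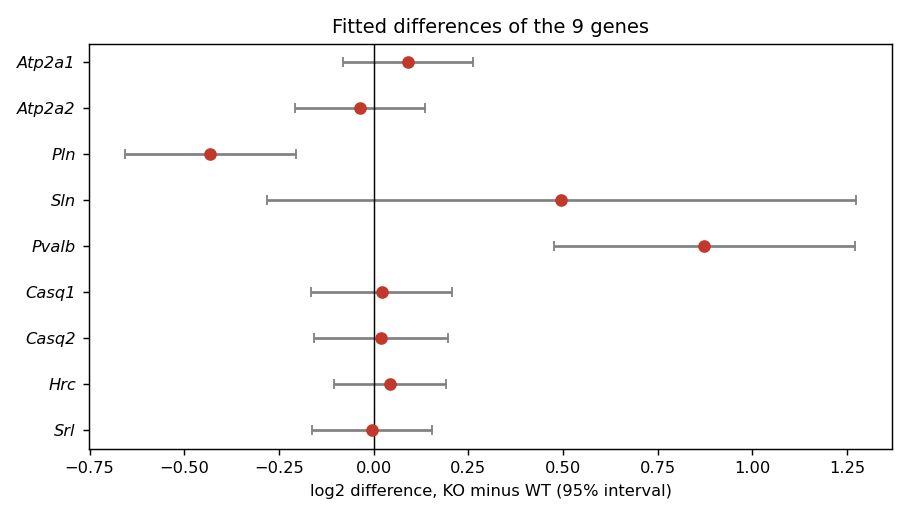
Fitted log2 difference of KO minus WT for each of the 9 genes, with its 95% interval from the fit across all 13848 genes (3 libraries each). Pvalb (0.48 to 1.27) and Pln (-0.66 to -0.21) lie farthest from 0 relative to their intervals, and these are the genes on whose difference the set was chosen.

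Against the whole transcriptome, the counts were as follows. In edgeR's quasi-likelihood test 0 of the 9 genes passed an adjusted p of 0.05, and 0 (0%) of all 13848 genes did, with 590 at an unadjusted p under 0.05. Pvalb was the 1 gene of the set with all KO libraries above WT, as were 4.96% of all genes, and Pln the 1 gene with all KO libraries below, as were 5.45%. The log2 difference had a median of 0.02 over the 9 genes and of -0.00 over all genes. Other fits and the authors' own made calls, given here only beside the share of all genes called. The authors' deposited table called 1 of the 9, Pvalb, among 5 genes in all (0.0133%), DESeq2 called Pvalb among 3 (0.0125%), and so did the quasi-likelihood test without WT replicate 1 (3 genes, 0.0211%). With no filter on low counts it called Pvalb and Pln among 19 genes (0.0793%). The set was selected on this contrast, so nothing is read from these shares or calls.

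Levels were compared between genes per kilobase of annotated exon. The order was the same in all 6 libraries. Atp2a2 led with 1018 ± 37.5 CPM per kilobase in KO and 1044 ± 83.1 in WT, followed by Atp2a1 with 689 ± 41.6 in KO and 647 ± 52.2 in WT. Srl, the store protein next in order, had 263 ± 15.0 in KO and 264 ± 10.8 in WT, and Hrc had 170 ± 1.63 in KO and 165 ± 6.86 in WT (SD, n = 3 each).

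Both calsequestrins lay close together, Casq2 at 134 ± 9.58 CPM per kilobase in KO and 132 ± 12.8 in WT, and Casq1 at 119 ± 5.89 in KO and 118 ± 14.7 in WT. Casq2 was above Casq1 within each of the 6 libraries, by a factor of 1.12 on average, but the ranges of these neighbours overlapped across libraries. Below them came Pvalb with 93.4 ± 8.85 in KO and 51.0 ± 12.4 in WT, then Sln with 39.8 ± 3.20 in KO and 28.3 ± 11.2 in WT. Pln was lowest, with 13.8 ± 1.82 in KO and 18.6 ± 1.87 in WT (SD, n = 3 each). Across libraries the ranges of Pvalb and Sln, and of Sln and Pln, also overlapped.

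**Figure D3:**
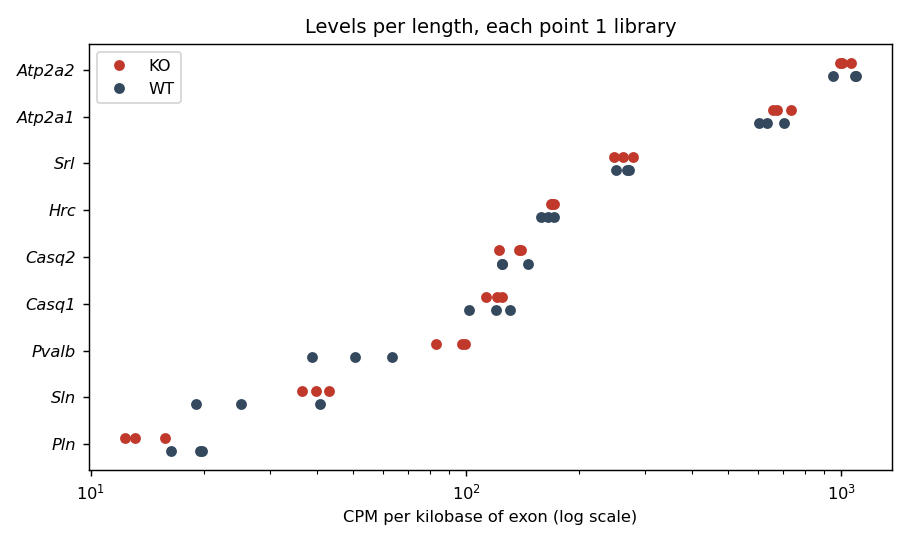
Level of each gene in CPM per kilobase of exon on a log axis, with 1 point per library and KO drawn above WT. The order from Atp2a2 down to Pln is the same in every library, and the genotypes separate only for Pvalb and Pln.

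Ratios within a library do not depend on scaling between libraries. Per kilobase, Atp2a2 stood at 1.51, 1.36 and 1.57 times Atp2a1 in KO libraries and at 1.73, 1.547 and 1.57 times in WT libraries, which overlapped. For every 100 of Atp2a2 there were 1.33, 1.58 and 1.16 of Pln in KO libraries, against 1.81, 1.79 and 1.73 in WT libraries. RNA of Pln was thus lower relative to RNA of Atp2a2 in each KO library than in any WT library, and the WT ratios were nearly alike. Protein was not measured. Per 100 of Atp2a1, Sln was at 5.58, 5.40 and 6.37 in KO and at 3.97, 5.78 and 3.16 in WT, again with WT replicate 2 inside the KO range.

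Set against each other, the inhibitors separated the genotypes. Sln stood at 2.79, 2.52 and 3.49 times Pln in KO libraries and at 1.27, 2.09 and 1.16 times in WT libraries, so that even WT replicate 2 was below every KO library. The mean ratio was 2.93 ± 0.50 in KO and 1.51 ± 0.51 in WT (SD, n = 3 each). Their summed level was less different, at 53.6 ± 3.31 CPM per kilobase in KO and 46.9 ± 12.5 in WT, with overlap. Pvalb per unit of Atp2a1 was 0.127, 0.133 and 0.147 in KO libraries and 0.1004, 0.0717 and 0.0644 in WT libraries. Pln per unit of Pvalb was 0.148 ± 0.021 in KO and 0.373 ± 0.057 in WT (SD, n = 3 each). Of the 9 ratios computed, 4 did not overlap between genotypes, each of them with Pln or Pvalb in it, so that these are further descriptions of the values that chose the set.

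The ratios among store proteins overlapped between genotypes. Casq2 stood at 1.12 ± 0.039 times Casq1 in KO and 1.13 ± 0.091 times in WT, Srl at 2.20 ± 0.098 times in KO and 2.26 ± 0.20 times in WT, and Hrc at 1.43 ± 0.066 times in KO and 1.41 ± 0.12 times in WT (SD, n = 3 each). Both pumps together came to 1707 ± 52.6 CPM per kilobase in KO and 1691 ± 126 in WT; both calsequestrins together overlapped between genotypes too.

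**Figure D4:**
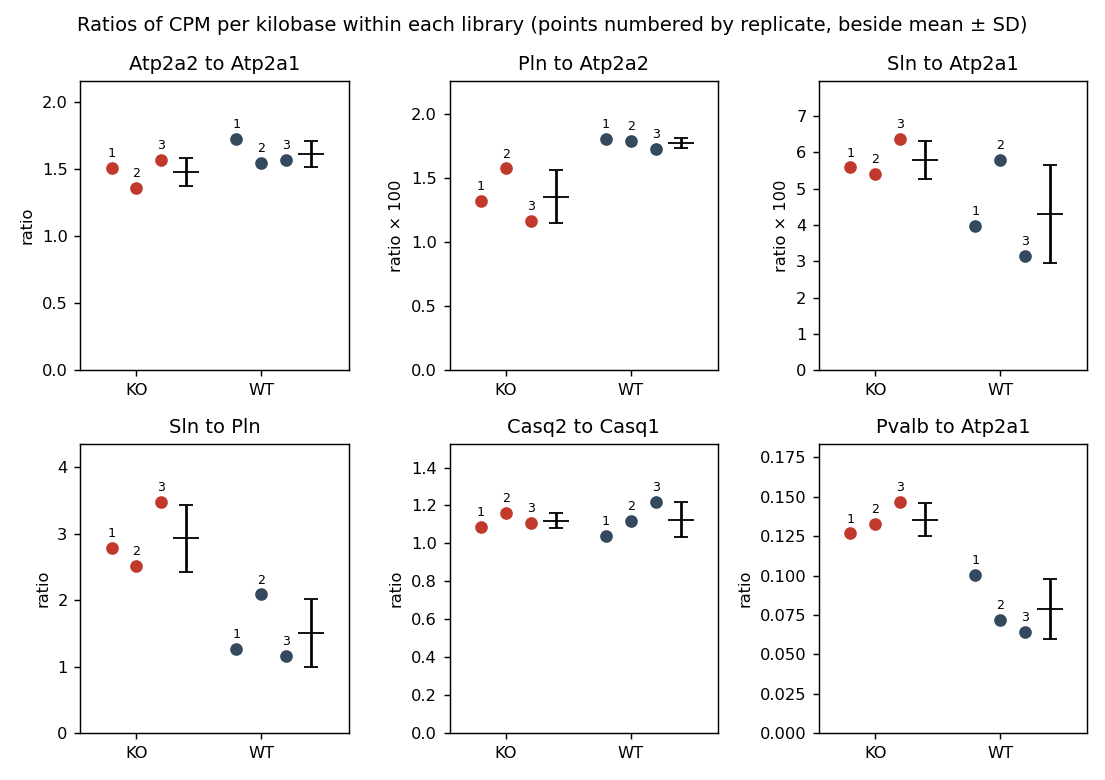
Ratios of CPM per kilobase within each library (for Pln to Atp2a2 and Sln to Atp2a1, times 100), with 1 point per library beside the mean and SD of each genotype. KO and WT are apart for Pln to Atp2a2, Sln to Pln and Pvalb to Atp2a1, and overlap for the pump ratio, the calsequestrin ratio and Sln to Atp2a1.

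Patterns over the 6 libraries were compared by the root-mean-square distance between log2 CPM profiles, each centred on its own mean, among 9749 genes with a symbol and at least 5 CPM. The profile nearest to Pvalb was that of Gm12848, a predicted gene, at a distance of 0.22, followed by Park2, the ubiquitin ligase parkin, at 0.24 and Acyp1, an acylphosphatase, at 0.25. The median distance to Pvalb was 0.52. Park2 was at 6.15, 6.40 and 6.93 CPM in KO libraries and at 5.36, 4.51 and 4.06 CPM in WT libraries, which do not overlap. Nearest to Pln were Hnrnph3, an RNA-binding protein, at 0.063, Rc3h1, an RNA-binding ubiquitin ligase known as roquin, at 0.076 and Cwc25, a splicing factor, at 0.079, where the median was 0.28. Rc3h1 was at 49.1, 63.6 and 44.4 CPM in KO libraries and at 69.7, 66.7 and 62.4 CPM in WT libraries. Within the set, Sln was the nearest to Pvalb, with rank 67 of 9749 and a distance of 0.35, and Pln was among the farthest, with rank 9493 and 0.69. The profiles hold the KO against WT contrast on which Pvalb and Pln were chosen. These distances and ranks therefore describe the values that chose the set and are no independent test.

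Other genes of calcium handling were read from 8 lists, chosen with earlier results of these data known. None of their 87 tested genes passed in the fit over all genes, in which 0 of all 13848 genes did. The counts of 0 given below for each list are therefore no result about its genes. The lowest adjusted p among these 87 was 0.989 in edgeR's quasi-likelihood test. At an unadjusted p under 0.05 there were 3, against 590 of all 13848 genes. By sign, 44 lay higher in KO and 43 lay lower, and their log2 differences had a median of 0.00. KO libraries lay above all WT libraries for 3 of them (3.45%) and below for 5 (5.75%), against 4.96% and 5.45% of all genes.

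Among other pump regulators and proteins of the store membrane, 0 of 11 passed, with 6 higher and 5 lower. Jsrp1, which links the store to the voltage sensor, was at 153 ± 3.49 CPM in KO and 138 ± 7.13 CPM in WT, and Atp2a3, a pump of non-muscle cells, at 10.9 ± 0.414 in KO and 13.1 ± 2.39 in WT (SD, n = 3 each). Of the calcium binders in the lumen or membrane of the store and endoplasmic reticulum, 0 of 13 passed, with 9 higher and 4 lower. Their example with the smallest unadjusted p was Stim2, a membrane-spanning calcium sensor, at 9.15 ± 0.349 CPM in KO and 11.2 ± 0.626 CPM in WT (SD, n = 3 each).

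Cytosolic calcium binders with EF-hands, the family of parvalbumin, had 0 of 12 past the test, 7 higher and 5 lower, and the median of their log2 differences was 0.06. Tnnc2, the calcium sensor of the fast thin filament, was at 1708 ± 76.5 CPM in KO and 1577 ± 19.9 CPM in WT, Pdcd6 at 22.8 ± 1.73 in KO and 27.8 ± 1.91 in WT, and S100a6 at 37.1 ± 4.27 in KO and 32.4 ± 4.37 in WT (SD, n = 3 each). Of pumps, exchangers and entry channels of the plasma membrane 0 of 11 passed, with 8 higher and 3 lower. Atp2b3, a plasma membrane pump, had the largest difference there, at 3.65 ± 1.45 CPM in KO and 2.04 ± 1.14 CPM in WT (SD, n = 3 each).

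Golgi pumps had 0 of 2 past the test and mitochondrial uptake 0 of 9, with 4 higher and 5 lower. Smdt1, a regulator of the mitochondrial calcium channel, was at 40.4 ± 3.15 CPM in KO and 35.1 ± 2.57 CPM in WT (SD, n = 3 each). Mcur1 and Micu3, of the same list, went the other way, each with all KO libraries below all WT libraries. Mcur1 was at 22.6 ± 1.00 CPM in KO and 26.1 ± 2.02 CPM in WT, and Micu3 at 7.81 ± 0.761 in KO and 9.19 ± 0.693 in WT (SD, n = 3 each). Of calcium release channels and junction proteins 0 of 13 passed, with 3 higher and 10 lower and a median of -0.08. Ryr1, the release channel of the store, was at 2080 ± 64.2 CPM in KO and 2257 ± 163 CPM in WT (SD, n = 3 each). Of the kinases, phosphatases and anchors that act on phospholamban or sarcolipin 0 of 16 passed, with 6 higher and 10 lower. Ppp1ca, a catalytic subunit of protein phosphatase 1, was at 95.8 ± 7.55 CPM in KO and 86.9 ± 6.36 CPM in WT (SD, n = 3 each). Prkacb, a catalytic subunit of the protein kinase that phosphorylates phospholamban, was at 33.5 ± 3.50 CPM in KO and 37.0 ± 1.37 CPM in WT (SD, n = 3 each).

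Fibre-type lists had 0 of 10 fast and 0 of 9 slow genes past the test, which 0 of all 13848 genes passed. Of the fast genes 7 lay higher in KO and 3 lower (median log2 difference 0.12), and of the slow genes 3 lay higher and 6 lower (median -0.03). DESeq2, limma voom and the quasi-likelihood test without WT replicate 1 each called 1 fast gene, Actn3, and with no filter on low counts 1 was called, Myh1. Among all genes, DESeq2 called 3 of 23953 and limma voom 1 of 13848. The quasi-likelihood test called 3 of 14199 without WT replicate 1 and 19 of 23953 with no filter.

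**Figure D5:**
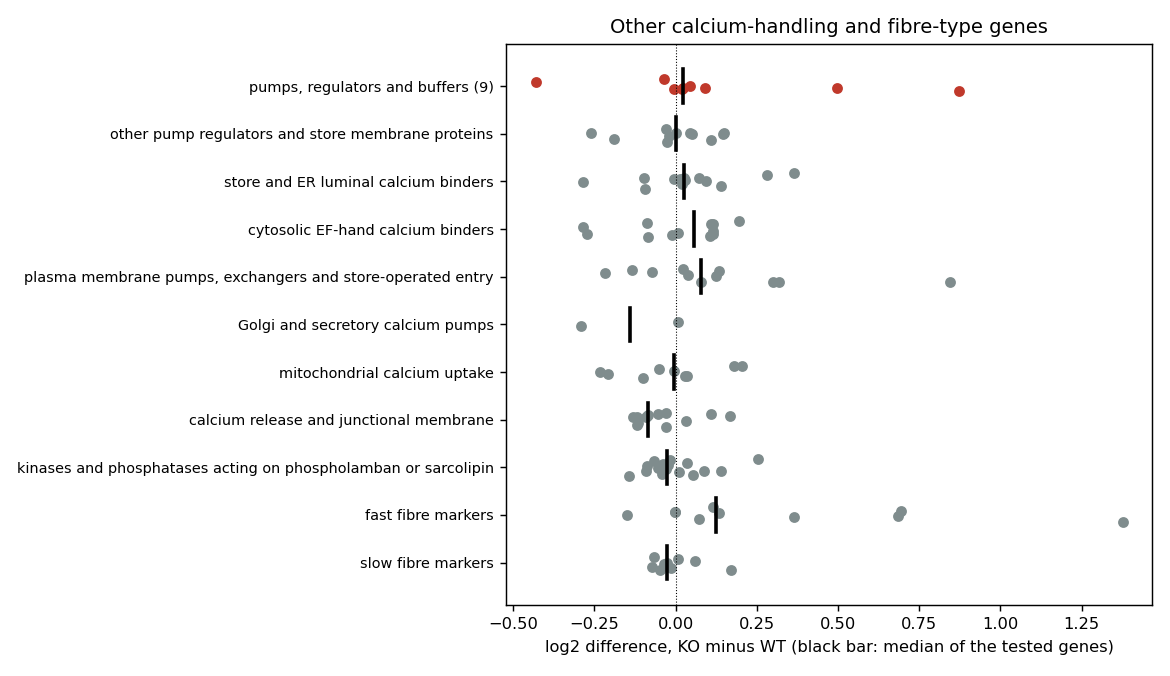
Log2 differences of KO minus WT for the 9 genes (red) and for the tested genes of the 10 related lists (grey), each with its median as a black bar. Medians of the lists lie between -0.14 and 0.12, and Pvalb (0.87) and Pln (-0.43) lie at the ends of the red row.

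Pln, Casq2 and Atp2a2 are also made by smooth muscle or heart, whose markers are given beside them. Smooth muscle and pericyte markers, without Des, which skeletal muscle makes too, were all detected, 7 of 7, with a summed level of 542 to 617 CPM in KO libraries and 583 to 631 CPM in WT libraries. Among them Myh11, the smooth muscle myosin, was at 35.8 ± 9.04 CPM in KO and 46.2 ± 3.55 CPM in WT (SD, n = 3 each), a log2 difference of -0.36 with overlapping groups. Cnn1 had too few counts for the test, and of the other 6 markers 5 lay lower in KO and 1 higher, with log2 differences of -0.15 for Pdgfrb, -0.11 for Acta2, -0.05 for Tagln, -0.01 for Rgs5 and 0.19 for Cspg4. Cnn1, calponin, had 0 to 7 counts in KO and 5 to 6 in WT. The part of smooth muscle in the Pln value was not tested. Of the 8 heart markers, 7 were detected and Myl7 was at 0 in all libraries, and Nppa, Nppb, Myl7, Tnni3 and Mybpc3 summed to 2 to 3 counts per KO library and 1 to 5 per WT library. The heart markers that could be tested lay lower in KO for 3 of 3 (median log2 difference -0.29). Tnnt2 was at 3.96 ± 1.10 CPM in KO and 5.66 ± 1.19 CPM in WT (SD, n = 3 each). Myl4 was at 6.86 ± 0.518 CPM in KO and 8.40 ± 1.26 CPM in WT (SD, n = 3 each), and both genes overlapped between genotypes. Heart myosin Myh6 was at 2411 ± 171 CPM in KO and 2432 ± 268 CPM in WT (SD, n = 3 each), but it shares near-identical sequence with Myh7, so that its counts are uncertain. Blood genes lay lower in KO for 5 of 5 (median log2 difference -0.39), and their summed level was 694 to 1706 CPM in KO libraries and 1009 to 1730 CPM in WT libraries. Schwann cell genes lay lower for 5 of 5 (median -0.14), with a sum of 44.3 to 74.4 CPM in KO and 53.6 to 75.6 CPM in WT. Adipocyte genes lay higher for 5 of 6 (median 0.29), with a sum of 271 to 307 CPM in KO and 251 to 329 CPM in WT. Endothelial genes lay higher for 2 and lower for 4, and fibroblast and macrophage genes each higher for 3 and lower for 3. KO libraries lay above all WT libraries for 2 of the 44 tested markers, Plin1 of adipocytes and Mrc1 of macrophages. That is 4.55%, against 4.96% of all genes. They lay below for 1, Pecam1 of endothelium, which is 2.27%, against 5.45% of all genes. The part of these cells in the values of the 9 genes was not tested. Over all the lists of other cell types 0 of 44 tested genes passed, as did 0 of all 13848 genes.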

How the data were processed

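RNA sequencing of muscle was read from 1 deposited table. Per the labels' protocols, RNA was taken up in Trizol and libraries were made with an Illumina TruSeq RNA kit; strand is not stated. The submitters' processing notes name TopHat 1.3.3, edgeR and build mm10, with no role or order; the sources used here do not name the read counter or annotation release. The authors deposited raw counts per gene, plus their own log2 fold changes, log2 abundances and p-values. Repeated rows (29) were merged, leaving 37477 IDs.

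From the counts, the fit used edgeR 4.0.16 in R 4.3.3: filterByExpr, TMM scaling, robust quasi-likelihood F-test on genotype, two-sided, with Benjamini-Hochberg adjustment over 13848 genes. Standard errors are the log2 difference divided by the square root of F. CPM uses TMM-scaled sizes, and lengths are merged exons of GENCODE M21, on the assembly mm10 names. Tables and figures were made with Python 3.11.15, pandas 2.3.3 and matplotlib 3.10.9. The fit was tested on simulated data. Named were the 9 genes, Esr1, up to 3 genes per list by unadjusted p and the 3 profiles nearest to Pvalb and Pln. Genes overlapping the set, Myh4, Mybpc2, Myl1, Tnnt3, Mylpf, Tnni2, Myh7 and markers of other cell types were named after their values were seen. The members and lists were chosen with earlier results of these data known. Alternatives were RLE, upper-quartile and no scaling, other filters, DESeq2 1.42.0, limma 3.58.1 voom, a fit with a replicate block, omission of each library in turn, other gene lengths and another prior count.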

Additional observations from a re-analysis of the deposited data

How the results depend on the processing

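The count of called genes, 0 in the quasi-likelihood test, was 19 with no filter beyond 1 read, 3 in DESeq2 and 1 in limma voom, and leaving out single libraries gave 0 to 3. Called genes of the related lists, 0 in that test, were 1 with no filter, 1 in DESeq2 and 1 in limma voom, and 0 to 1 without single libraries. The cause was not tested. All 126 alternative log2 differences of the 9 genes moved by less than 1 SD between replicates. Pvalb ran from 0.71 to 1.06, Pln from -0.54 to -0.36 and Sln from 0.27 to 0.85, each keeping its sign in all 14 alternatives. Casq1 kept it in 12, Casq2 in 10 and Srl in 8. Of 90 alternative values of ratios 20 moved by more than 1 SD, all of them with another gene length or no length correction. None moved by that much when a single library was left out. The order of mean levels over the 6 libraries was kept with the longest transcript as length. With no length correction it was kept too, although the WT means alone were then 51.2 ± 5.17 CPM for Pln and 37.3 ± 14.8 CPM for Sln (SD, n = 3). Of the nearest profiles, 5 of 6 were shared at a prior count of 0.5. The replicate block called 0 genes. Deviations of same-numbered libraries correlated weakly and not all in 1 direction (r = -0.015, 0.16 and 0.038 across genes), so the numbers were not taken as pairs. Pln and Sln had 198 to 458 counts per library, which limits their precision.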
